A study of Mus musculus with 6 samples.

Results

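The nuclear regulators of mitochondrial biogenesis were followed in whole hearts of C57BL/6 mouse embryos at stage E13.5, with and without an intact copy of Tfam, the packaging and transcription factor of mitochondrial DNA. The set was 10 genes chosen by symbol from the 23284 listed in each library, and all 10 were found: the coactivators Ppargc1a, Ppargc1b and Pprc1, the nuclear receptors Esrra, Esrrg and Ppara, the transcription factors Nrf1 and Gabpa, and the deacetylases Sirt1 and Sirt3. Mutant (Tfam KO) hearts were Tfam fl/fl; Nkx2.5 IRES-Cre/+ and Control hearts Tfam fl/+; Nkx2.5 IRES-Cre/+, so controls also carried Cre and a single floxed copy. Nkx2.5 drives Cre in the heart-forming lineage, and whole hearts also hold cells of other origin. Each group had 3 libraries of polyadenylated RNA and each library pooled 5 hearts. The comparison asks how the regulators differ between these genotypes. In such bulk samples, fewer cells of a type and less RNA per cell cannot be told apart.

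PGC-1 coactivators do not bind DNA themselves. They dock on nuclear receptors and on NRF1 and raise the transcription of genes for the respiratory chain, fatty acid oxidation and mitochondrial DNA upkeep, Tfam among them. In heart muscle they work with the estrogen-related receptors (Esrra, Esrrg) and with PPAR alpha (Ppara), NRF1 and the GABP complex act on respiratory chain promoters, and SIRT1 deacetylates PGC-1 alpha in the nucleus. SIRT3 is the main deacetylase inside mitochondria and a known target of PGC-1 alpha and ERR alpha.

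Because these regulators are known to act on promoters of genes in their own network, the promoters were searched for the NRF1, GABP and estrogen-related receptor motifs. The ATF4, YY1 and CRE letters, which are not motifs of the 10 regulators, were searched as well. RefSeq windows of 300 bases around a start site (build GRCm38.p6) were at hand for 9 of the 10 genes. The stretches below are shown because they hold the matches, in capitals, 5′ to 3′ on the strand of the gene. Pprc1, whose window held none of the motifs, is shown for comparison with Sirt3.
Sirt3, chr7:140882310-140882399, minus strand, with the GABP match: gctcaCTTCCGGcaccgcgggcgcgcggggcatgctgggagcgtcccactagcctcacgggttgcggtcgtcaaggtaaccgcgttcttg
Pprc1, chr19:46056436-46056525, plus strand, no match: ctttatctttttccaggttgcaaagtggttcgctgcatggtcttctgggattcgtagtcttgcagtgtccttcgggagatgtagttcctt
Gabpa, chr16:84835019-84835048, plus strand, with the GABP match: ggagggtaagtgCTTCCGGgtccctcagct
Gabpa, chr16:84835046-84835075, plus strand, with the YY1 match: gctaagactccGCCATCTTtcctacacttt
Ppara, chr15:85735735-85735764, plus strand, with the NRF1 match: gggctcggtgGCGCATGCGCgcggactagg
Esrra, chr19:6922017-6922046, minus strand, with the ATF4 match: gccctccttcgTGATGCAAgggtgctccgg

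Searched on both strands, the GABP letters CCGGAAG stood in 8.86% of all 32851 windows and in those of Gabpa and Sirt3. These letters are the core motif of the ETS family of factors, so a match is not particular to GABP. The shares are per window, not per gene: Esrrg had 4 windows, Nrf1 and Sirt3 had 2 each and the others 1. The palindromic NRF1 motif was in 4.6% of windows and, of the regulators, in that of Ppara. The ATF4 composite letters TGATGNAA were in 3.97% of windows and in that of Esrra, and the YY1 letters AAGATGGC in 2.75% of windows and in that of Gabpa. The estrogen-related receptor letters TCAAGGTCA (0.423% of windows) and the CRE letters TGACGTCA (1.79%) were found in 0 of the 9 genes. The stretch of Sirt3 spans the 84 bases that separate its start from that of Psmd13, a proteasome subunit gene read in the other direction.

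Library totals ran from 12370092 to 18078620 reads. The level of a gene is its FPKM, reads scaled by transcript length and library total. Overall scale differed between libraries: the median log2 fold change (Tfam KO minus Control) of all tested genes was 0.28 on the deposited scale and 0.013 once each library was divided by its median-of-ratios size factor (the size-factor scale). Changes are given on both scales, and "rose" or "fell" is kept for genes past the threshold on both. Rn45s, the ribosomal RNA precursor, took 14.95% to 31.2% of KO and 27.8% to 32.5% of control totals. Tfam itself was at 3.97, 4.77 and 6.22 FPKM in KO and 4.64, 5.55 and 6.62 FPKM in control libraries, which overlap. The 8 cardiomyocyte markers summed to 7773 to 10076 FPKM in KO and 8423 to 10079.9 FPKM in control libraries on the deposited scale, and to 6682 to 10949 FPKM and 9229 to 11686 FPKM on the size-factor scale, where 1 of them, Nkx2-5, was called lower. Of 6 fibroblast and valve mesenchyme markers, 3 (Postn, Pdgfra, Lum) were called higher on the deposited and 0 on the size-factor scale, none was at 0 in all libraries, and their deposited sums were 337 to 488 FPKM in KO and 216 to 318 FPKM in controls, on the size-factor scale 326 to 369.9 FPKM and 251 to 367 FPKM. On the deposited scale only, Emcn (endocardium) was also called higher and Alb (liver) and Ckm (muscle) lower. The part of these markers in the results below was not tested.

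Among the regulators, Sirt3 and Pprc1 were the ones whose Tfam KO libraries all lay above the controls on both scales. All 10 passed the filter of a mean of at least 1 FPKM. On the deposited scale limma called 2 of them higher (Sirt3 and Pprc1) and 0 lower at an adjusted p under 0.05, and of all 10807 tested genes it called 6.21% higher and 1.16% lower. That fit took 1 spread for all genes of like level (infinite prior degrees of freedom), so its standard errors were nearly alike (0.21 to 0.23 for the middle 90% of genes) and its p-values do not reflect a gene's own spread between pools. The size-factor fit weighed in each gene's own spread (prior degrees of freedom 6.2). On the size-factor scale it called 0 in either direction, where 2.07% of tested genes were called higher and 2.5% lower. Limma-voom on the recovered reads called 0 as well, against 2.55% of tested genes higher and 4.27% lower. Before adjustment the size-factor fit had 2 regulators higher and 0 lower, and limma-voom 2 higher and 1 lower. No share of all tested genes before adjustment is given here. The median log2 fold change of the 10 was 0.32 on the deposited scale, beside 0.28 for all tested genes, and 0.04 on the size-factor scale, beside 0.013. The set as a whole therefore sat close to the median gene. All 3 KO libraries lay above all 3 controls for 3 of the 10 on the deposited scale (25.6% of tested genes) and for 2 on the size-factor scale (12.5%), and below them for 0 (2.34% and 11.6% of tested genes).

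**Figure D1:**
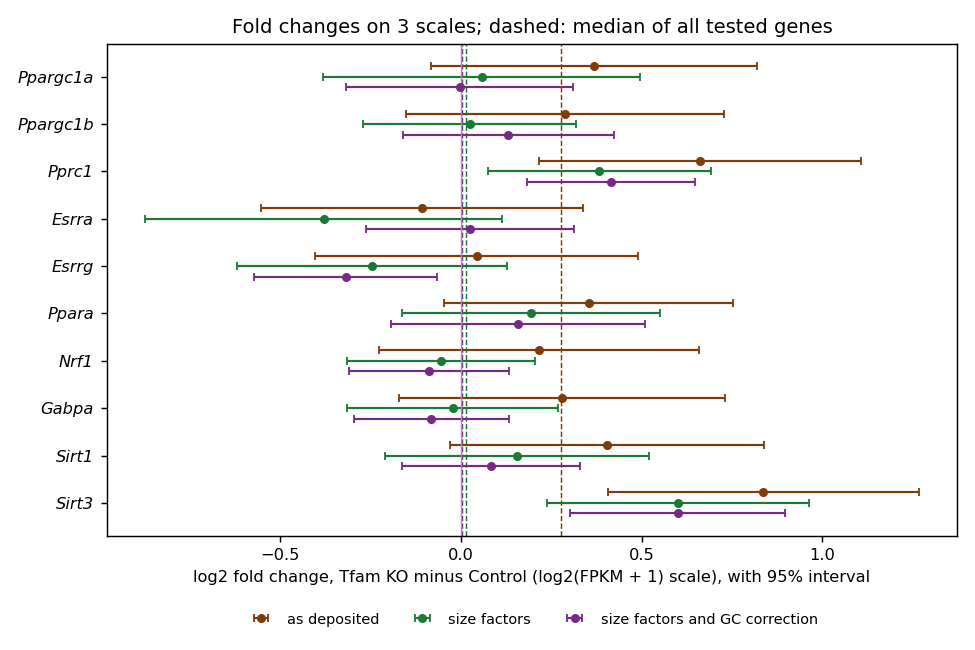
Log2 fold change of each regulator (x axis, Tfam KO minus Control, log2(FPKM + 1) scale) with its 95% limma interval, on the deposited scale, the size-factor scale and the size-factor scale with a GC correction; dashed lines mark the median of all tested genes. The intervals of Sirt3 and Pprc1 lie above 0 on all 3 scales, and that of Esrrg below 0 with the GC correction only.

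Ppargc1a, the inducible PGC-1 alpha, was the most abundant coactivator. Its level was 18.04, 21.6 and 29.8 FPKM in KO libraries 1, 2 and 3 and 12.4, 21.4 and 19.6 FPKM in control libraries 1, 2 and 3. The groups overlapped, with KO library 1 below 2 of the 3 controls. Its fold change was 0.37 on the deposited scale (95% interval -0.084 to 0.82, limma adjusted p = 0.276) and 0.057 on the size-factor scale (-0.38 to 0.50, adjusted p = 0.911), all in log2 units, as are the fold changes that follow. Ppargc1b, its close relative PGC-1 beta, was at 5.45, 4.397 and 5.12 FPKM in KO and 3.102, 3.98 and 4.74 FPKM in control libraries. Here too the groups overlapped, since KO library 2 lay below Control library 3. The fold change of Ppargc1b was 0.29 (adjusted p = 0.377) on the deposited and 0.024 (-0.27 to 0.32, adjusted p = 0.945) on the size-factor scale. In RefSeq, Ppargc1b overlaps Gm52354, a noncoding gene that is not among the listed genes, by 1598 bases.

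Pprc1, the PGC-1-related coactivator induced by serum, separated between the genotypes. It measured 9.26, 5.399 and 7.47 FPKM in KO and 3.97, 3.99 and 4.67 FPKM in control libraries, so every KO library lay above every control. On the size-factor scale the controls were close together at 4.83, 4.63 and 4.65 FPKM, and the KO libraries at 7.96, 5.89 and 5.67 FPKM were all above them. Its fold change was 0.66 on the deposited scale (SE 0.23, limma adjusted p = 0.0491), just inside the threshold, and 0.38 on the size-factor scale (SE 0.14, 0.075 to 0.69, adjusted p = 0.161). The deposited-scale call held without KO library 2 (adjusted p = 0.01304) and was lost without KO library 1 or 3 (adjusted p = 0.302 and 0.122) or Control library 1, 2 or 3 (adjusted p = 0.289, 0.2203 and 0.0995). In RefSeq, Pprc1 lies between Ldb1, a cofactor of LIM-domain factors, and Nolc1, a nucleolar phosphoprotein gene. Ldb1 had a fold change of 0.031 (adjusted p = 0.9304) on the deposited and -0.28 (adjusted p = 0.2900) on the size-factor scale. For Nolc1 the values were 0.56 (adjusted p = 0.107) and 0.25 (adjusted p = 0.269).

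**Figure D2:**
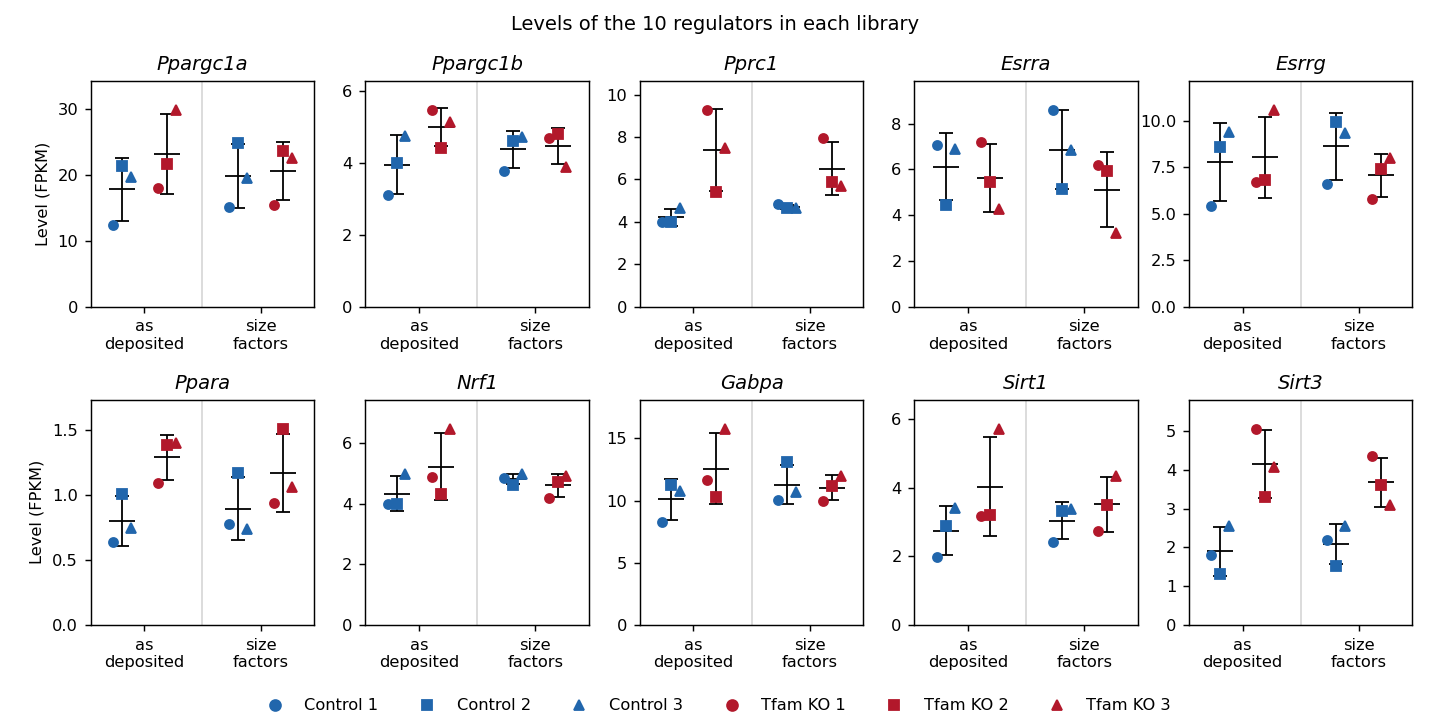
Level in FPKM (y axis, from 0) of each regulator in the 3 Control (blue) and 3 Tfam KO (red) libraries, deposited values on the left of each panel and values divided by size factors on the right; symbols mark the replicate number and bars the mean ± SD (n = 3). KO and control libraries separate on both sides of the panel for Pprc1 and Sirt3, and for Ppara on the left side.

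None of the nuclear receptors passed the threshold. Esrra, which encodes ERR alpha, was at 7.18, 5.43 and 4.24 FPKM in KO and 7.04, 4.44 and 6.88 FPKM in control libraries. The groups spanned nearly the same range, with a fold change of -0.11 (adjusted p = 0.747) on the deposited and -0.38 (-0.87 to 0.11, adjusted p = 0.394) on the size-factor scale. Esrra overlaps Trmt112, on the other strand, by 52 bases in RefSeq, and without a stated strand setting reads there cannot be assigned to either gene. Esrrg, which encodes ERR gamma, was at 6.73, 6.803 and 10.6 FPKM in KO and 5.403, 8.58 and 9.402 FPKM in control libraries, which overlap. Its fold change was 0.043 (adjusted p = 0.901) on the deposited scale and of the other sign, -0.25 (-0.62 to 0.13, adjusted p = 0.476), on the size-factor scale. In RefSeq, Esrrg overlaps Gm36388, a noncoding gene on the other strand that is not among the listed genes, by 43552 bases.

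Ppara, the fatty acid sensor, was the scarcest regulator. It was at 1.09, 1.38 and 1.399 FPKM in KO and 0.636, 1.01 and 0.743 FPKM in control libraries, from 66 to 174 reads a library. All KO libraries lay above the controls on the deposited scale, whereas on the size-factor scale KO libraries 1 and 3 (0.939 and 1.06 FPKM) lay below Control library 2 (1.17 FPKM). The fold change was 0.35 (adjusted p = 0.243) and 0.19 (-0.16 to 0.55, adjusted p = 0.571) on these scales.

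Nrf1 and Gabpa, the DNA-binding factors, had intervals around 0 on the size-factor scale, about as wide as that of Ppargc1b (-0.27 to 0.32). Nrf1 was at 4.87, 4.32 and 6.46 FPKM in KO and 3.98, 3.99 and 4.98 FPKM in control libraries, and divided by size factors at 4.18, 4.72 and 4.896 FPKM and 4.85, 4.62 and 4.96 FPKM. The groups overlapped either way, with a fold change of 0.22 (adjusted p = 0.508) on the deposited and -0.056 (-0.32 to 0.20, adjusted p = 0.848) on the size-factor scale. Gabpa, the DNA-binding subunit of GABP, was at 11.6, 10.3 and 15.8 FPKM in KO and 8.25, 11.3 and 10.8 FPKM in control libraries. Its groups overlapped too, with a fold change of 0.28 (adjusted p = 0.403) on the deposited and -0.022 (-0.31 to 0.27, adjusted p = 0.948) on the size-factor scale. Gabpa overlaps Atp5j, an ATP synthase subunit gene on the other strand, by 967 bases in RefSeq.

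Sirt3 had the largest fold change of the 10 regulators on both scales. It was at 5.05, 3.305 and 4.08 FPKM in KO and 1.81, 1.32 and 2.56 FPKM in control libraries (4.14 ± 0.875 and 1.898 ± 0.625, SD, n = 3 each). Every KO library was above every control, also on the size-factor scale, where the values were 4.34, 3.61 and 3.09 FPKM and 2.202, 1.53 and 2.55 FPKM. The fold change was 0.84 on the deposited scale (SE 0.22, limma adjusted p = 0.00496) and 0.60 on the size-factor scale (SE 0.16, 0.24 to 0.96, adjusted p = 0.0678), which missed the threshold. On the deposited scale the call was lost without KO library 1 (adjusted p = 0.0933), Control library 1 (0.0621) or Control library 2 (0.1397). Few reads lie behind these values, 93, 67 and 100 in KO and 37, 24 and 68 in control libraries. Sirt1, the nuclear sirtuin, was at 3.18, 3.21 and 5.71 FPKM in KO and 1.98, 2.88 and 3.398 FPKM in control libraries. Its groups overlapped, with a fold change of 0.41 (adjusted p = 0.221) on the deposited and 0.16 (-0.21 to 0.52, adjusted p = 0.676) on the size-factor scale.

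Sirt3 lies between Psmd13 and Ric8a. Psmd13, whose start faces that of Sirt3, was at 32.6, 22.6 and 34.00 FPKM in KO and 18.5, 23.9 and 25.1 FPKM in control libraries, with a fold change of 0.38 (adjusted p = 0.264) on the deposited and 0.063 (adjusted p = 0.827) on the size-factor scale. Ric8a, listed under its older symbol Ric8, encodes a chaperone of G protein alpha subunits and runs toward Sirt3 on the opposite strand. Ric8 was at 4.81, 3.15 and 4.84 FPKM in KO and 1.84, 2.098 and 2.24 FPKM in control libraries, which do not overlap. It rose, with fold changes of 0.77 (limma adjusted p = 0.0128) on the deposited and 0.52 (adjusted p = 0.0404) on the size-factor scale. The size-factor call was lost without any 1 of the 6 libraries (adjusted p from 0.0588 to 0.154), and the deposited-scale call without KO library 1 or 3 or Control library 1 or 2 (adjusted p = 0.117, 0.0716, 0.164 and 0.07204). Sirt3 and Ric8a overlap by 69 bases at their 3′ ends in RefSeq. The strand setting of the counting is not given in the sources used here, so the values of both genes are uncertain, and how far reads of either were counted for the other was not tested.

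Levels per transcript length gave an order of the regulators. In controls Ppargc1a came first (12.4 to 21.4 FPKM), above Gabpa (8.25 to 11.3 FPKM) with no overlap. Esrrg, Esrra, Nrf1, Pprc1, Ppargc1b, Sirt1 and Sirt3 followed Gabpa in that order of their means, the range of each overlapping that of the next. Within each control library, Gabpa was above Esrrg, Esrra above Nrf1, Ppargc1b above Sirt1 and Sirt1 above Sirt3 in 3 of 3, while Esrrg and Esrra, Nrf1 and Pprc1, and Pprc1 and Ppargc1b changed places in 1 of 3. Ppara came last, below all Sirt3 values. The KO libraries had the same gaps at the top and bottom of the order, but Pprc1 was above Nrf1 in 3 of 3 and Sirt3 above Sirt1 in 2 of 3.

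A ratio of 2 regulators within a library does not depend on the library's overall scale. Pprc1 to Ppargc1b was 1.698, 1.23 and 1.46 in KO and 1.28, 1.003 and 0.987 in control libraries, a log2 difference of 0.42 (exact two-sided permutation p = 0.2). KO library 2 fell inside the control range and the other KO libraries above it. Pprc1 to Ppargc1a was 0.513, 0.249 and 0.251 in KO and 0.321, 0.187 and 0.238 in control libraries (log2 difference 0.39, exact permutation p = 0.4), and the difference was 0.045 without KO library 1, 0.20 without Control library 2 and 0.59 without Control library 1. Sirt3 to Sirt1 was 1.59, 1.03 and 0.714 in KO and 0.912, 0.4595 and 0.754 in control libraries (log2 difference 0.63, exact permutation p = 0.3). These groups overlapped as well, and the difference was 0.33 without KO library 1 and 0.34 without Control library 2. The log2 differences of Ppargc1a to Ppargc1b, Esrra to Esrrg and Nrf1 to Gabpa were 0.031, -0.18 and -0.044 (exact permutation p = 1, 0.8 and 1). With 3 against 3 the smallest possible p is 0.1, and adjusted over the 6 ratios all values were at least 0.8.

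**Figure D3:**
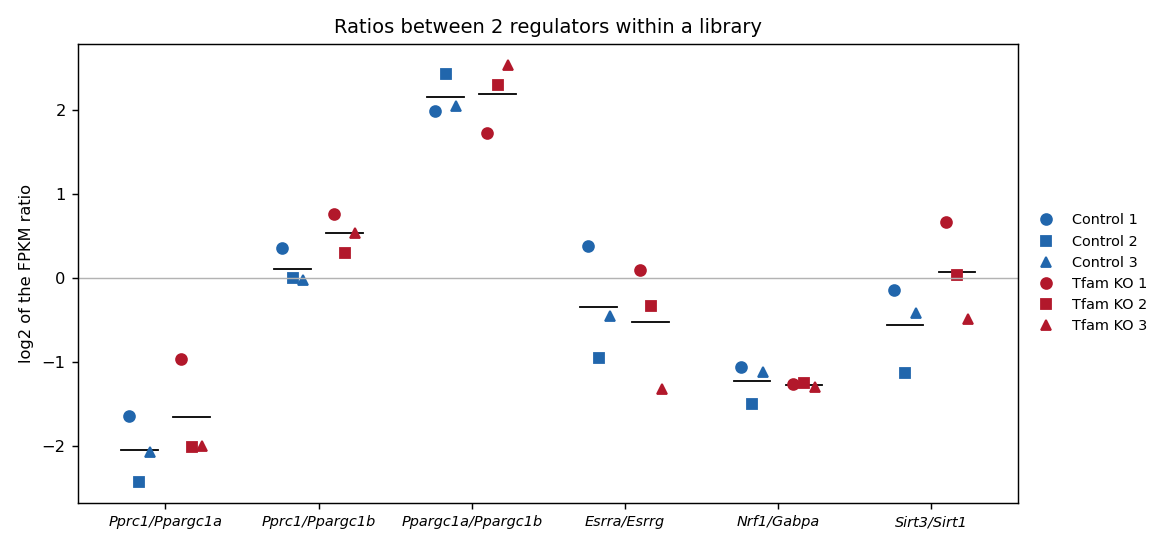
Log2 of the FPKM ratio of 2 regulators in the same library (y axis) for 6 pairs, Control in blue and Tfam KO in red, with symbols for the replicate number and a bar at the mean of 3. KO and control libraries overlap in all 6 pairs, and the libraries numbered 1 (circles) are the extreme of their group on the same side in 5 pairs.

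The libraries numbered 1 were at the same extreme of their own group in 5 of the 6 ratios. Esrra to Esrrg, for example, was 1.07 in KO library 1 and 1.304 in Control library 1, against 0.402 in KO library 3 and 0.517 in Control library 2. GC content of the transcripts moved with this in 4 of these 5 pairs, being 61.8% for Esrra, 55.9% for Pprc1 and 54.8% for Sirt3, and 42.5% for Esrrg, 41.7% for Ppargc1a and 42.9% for Sirt1. Pprc1 to Ppargc1b went against it, being highest in the libraries numbered 1 although Ppargc1b had the higher GC content (57.8%). Nrf1 (51.1%) to Gabpa (41.4%) was highest in Control library 1 but in the middle in KO library 1. Over all tested genes above 58% GC, the median log2 deviation from the group mean was 0.16 in KO library 1 and 0.18 in Control library 1, and -0.21 in KO library 3 and -0.19 in Control library 2. Genes under 42% GC deviated the other way in these 4 libraries.

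**Figure D4:**
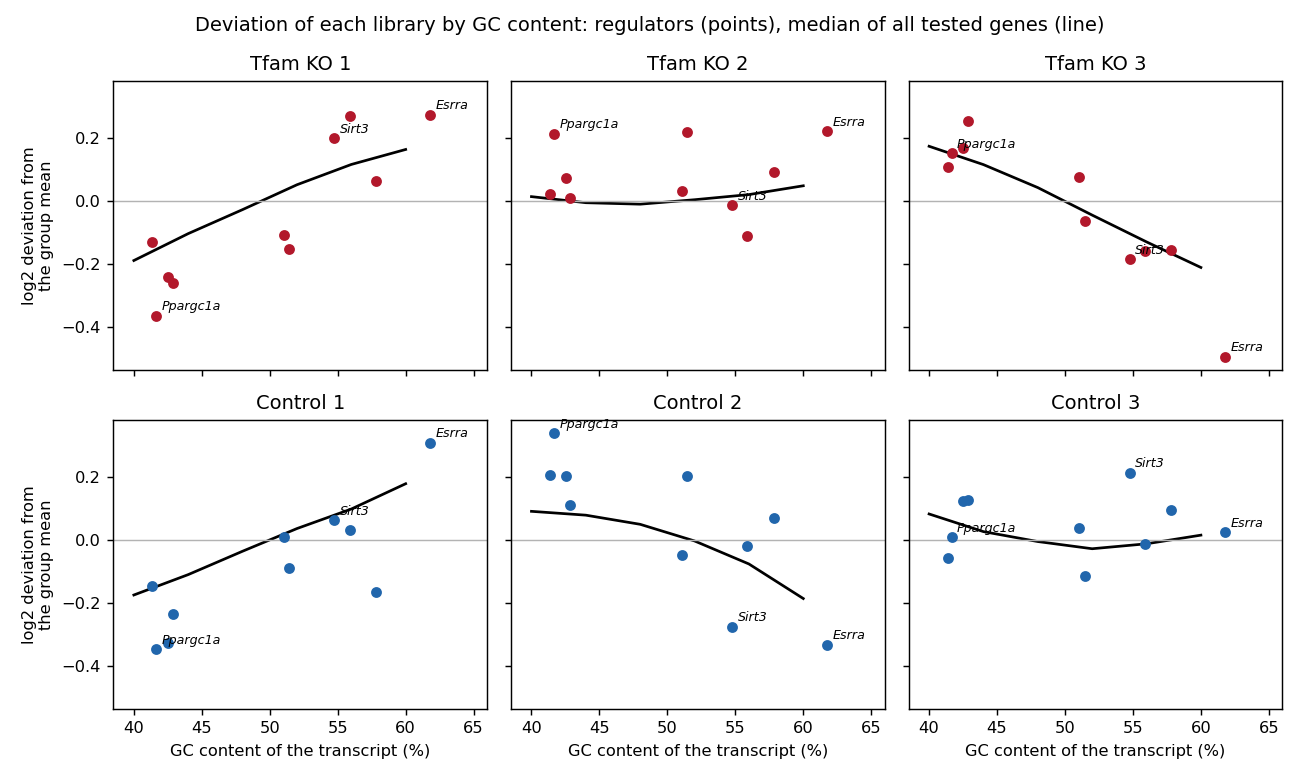
Log2 deviation of each library from its group mean (y axis, size-factor scale) against transcript GC content in percent (x axis), with a point per regulator and a line through the medians of all tested genes in 6 GC classes. The line climbs with GC in the libraries numbered 1 and descends in KO library 3 and Control library 2, and Esrra lies on the same side of 0 as the right end of the line in these 4.

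The GC-dependent deviation was also taken from the mean of all 6 libraries, so that GC-dependent differences between the groups were included in it. A fit on the size-factor scale with that deviation taken out was added after the data were seen. In it Sirt3 had a fold change of 0.60 (0.30 to 0.90, limma adjusted p = 0.0279) and Pprc1 one of 0.42 (0.18 to 0.65, adjusted p = 0.0436), and these 2 passed the threshold while the other 8 did not, where 3.72% of 9847 genes were called higher and 3.63% lower. Esrra moved to 0.025 (adjusted p = 0.935) and Esrrg to -0.32 (-0.57 to -0.066, adjusted p = 0.124). The Sirt3 to Sirt1 ratio no longer overlapped between the groups, with a difference of 0.52 on the log2(FPKM + 1) scale and an exact permutation p = 0.1. This is the smallest p possible with 3 against 3 and is not adjusted over the ratios. The other ratios still overlapped after the correction (exact permutation p from 0.2 to 0.9).

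Related genes were read against the same background, 6.21% of tested genes higher and 1.16% lower on the deposited scale and 2.07% and 2.5% on the size-factor scale. These shares are at an adjusted p under 0.05, and counts before adjustment have no such share beside them. Of 5 tested nuclear receptor partners (Esrrb, Ppard, Rxra, Rxrb, Thra), limma called 0 on either scale (before adjustment 0 on the deposited and 1, lower, on the size-factor scale) and limma-voom called 0 (1 lower before adjustment). Their median fold change was 0.13 on the deposited and -0.16 on the size-factor scale, beside 0.28 and 0.013 for all tested genes, and Pparg, Rxrg and Thrb were under the filter. Among 28 coregulators, kinases and upstream factors of PGC-1, 0 were called on the deposited scale (5 higher and 0 lower before adjustment), and 1 was lower on the size-factor scale and by limma-voom. Before adjustment 1 was higher and 3 lower on the size-factor scale, and 2 were higher and 3 lower by limma-voom. The median fold change of these 28 was 0.32 and 0.027 on the 2 scales.

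Of 11 tested genes for other sirtuins and NAD supply, 3 (Nmnat1, Parp2, Sirt2) were called higher and 0 lower on the deposited scale. Beside this stand 6.21% and 1.16% of tested genes. Before adjustment 5 of the 11 were higher and 0 lower. On the size-factor scale and by limma-voom 0 were called (2 higher before adjustment by each), and the median fold changes were 0.35 and 0.11 on the 2 scales. Nmnat1, a nuclear NAD-synthesising enzyme, was at 18.1, 9.94 and 15.9 FPKM in KO and 9.48, 5.59 and 10.1 FPKM in control libraries, which overlap. Its fold change was 0.73 (limma adjusted p = 0.0271) on the deposited and 0.43 (adjusted p = 0.265) on the size-factor scale. The deposited-scale call of Nmnat1 was lost without KO library 1 or 3 or Control library 1 or 2 (adjusted p = 0.256, 0.0962, 0.0791 and 0.353), and without Control library 2 its size-factor fold change was 0.22. Parp2, an NAD-consuming DNA repair enzyme, was at 9.81, 7.53 and 14.9 FPKM in KO and 5.54, 5.88 and 6.34 FPKM in control libraries, which do not overlap. For Parp2 the fold change was 0.72 (adjusted p = 0.0314) and 0.42 (adjusted p = 0.119). Its deposited-scale call held only without KO library 2, and without KO library 3 the fold change was 0.47 (adjusted p = 0.327).

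Of 28 genes listed as partners and classical targets of NRF1 and GABP, 2 (Sdhb, Nfe2l1) were called higher on the deposited scale, a share near the background of 6.21%. None of the 28 was called lower there, and before adjustment 9 were higher and 1 lower. On the size-factor scale 0 were called (3 higher and 4 lower before adjustment) and by limma-voom 2 higher and 1 lower. Tfam, the gene targeted in the knockout, is on this list and was 1 of those 4 lower (fold change -0.42). Sdhb and Nfe2l1 were among those 3 higher and were the 2 called higher by limma-voom. The median fold changes of the list were 0.29 on the deposited and -0.014 on the size-factor scale. Sdhb, a subunit of complex II, was at 129, 91.9 and 127 FPKM in KO and 58.3, 74.4 and 63.5 FPKM in control libraries, all KO libraries above the controls. Its fold change was 0.81 (limma adjusted p = 0.0103) on the deposited and 0.48 (adjusted p = 0.0822) on the size-factor scale. Nfe2l1, a stress-responsive factor, shares the protein name NRF1 with the respiratory factor but is a different gene. Its calls are therefore not read as those of an NRF1 or GABP target. Nfe2l1 was at 43.5, 37.1 and 42.1 FPKM in KO and 22.3, 22.8 and 26.3 FPKM in control libraries. The groups did not overlap, and the fold change was 0.76 (adjusted p = 0.0208) and 0.44 (adjusted p = 0.06998). Deposited-scale calls were lost for both genes without KO library 1 (adjusted p = 0.124 for Sdhb and 0.145 for Nfe2l1), Control library 1 (0.166 and 0.195) or Control library 3 (0.07802 and 0.06299), and for Nfe2l1 also without Control library 2 (0.155).

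The list of PPAR alpha and estrogen-related receptor targets, which serve fatty acid oxidation and the citric acid cycle, had 27 tested genes. On the deposited scale 5, Acot2 and Lpl among them, were called higher and 0 lower, beside 6.21% and 1.16% of tested genes. Before adjustment 15 of the 27 were higher and 0 lower. On the size-factor scale and by limma-voom 1, Acot2, was higher and 0 lower (5 and 2 before adjustment on the size-factor scale), and the median fold changes were 0.46 and 0.16 on the 2 scales. Acot2, a mitochondrial acyl-CoA thioesterase, rose from 10.4, 13.4 and 10.8 FPKM in control to 29.9, 26.9 and 29.1 FPKM in KO libraries, with a wide gap between the groups. Its fold change was 1.25 (limma adjusted p = 4.84e-06) on the deposited and 0.94 (adjusted p = 0.00641) on the size-factor scale. Reads of Acot2 can be split with its close copy Acot1, so its value is uncertain. Lpl, lipoprotein lipase, was at 28.6, 32.8 and 37.6 FPKM in KO and 14.1, 22.1 and 20.3 FPKM in control libraries, with a fold change of 0.79 (adjusted p = 0.0145) and 0.48 (adjusted p = 0.159). Its deposited-scale call was lost without KO library 3 (adjusted p = 0.0554), Control library 1 (0.323) or Control library 3 (0.0506).

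**Figure D5:**
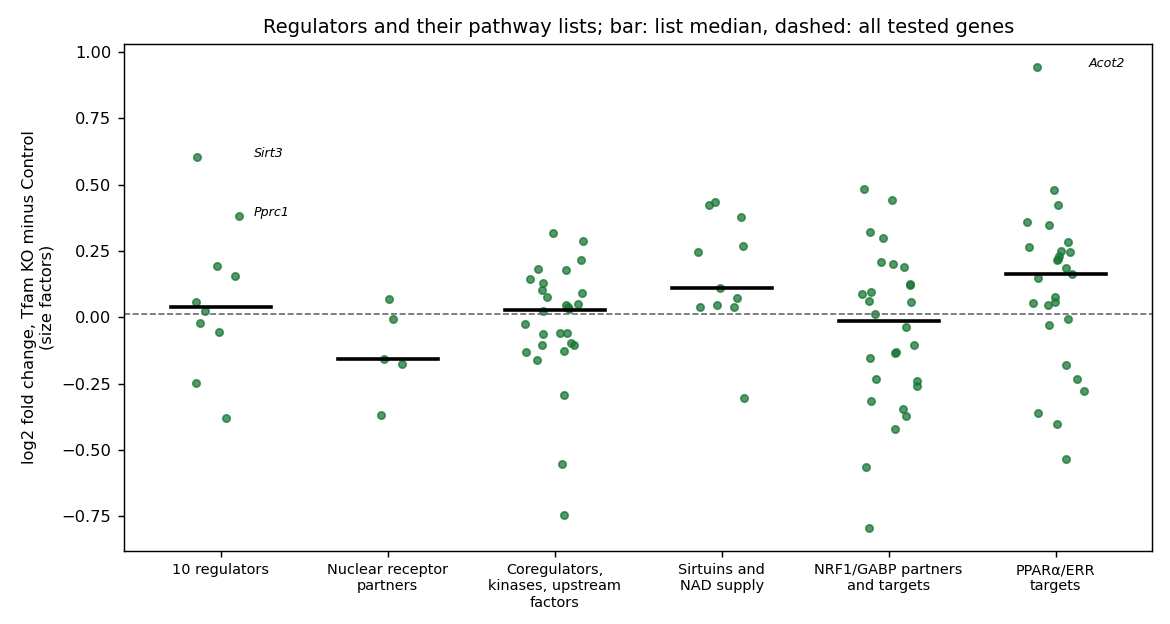
Log2 fold change on the size-factor scale (y axis, Tfam KO minus Control) of each tested gene among the 10 regulators and in 5 lists of related genes; black bars are medians and the dashed line is the median of all tested genes. The medians lie between -0.16 and 0.16, with Acot2 the highest point and Sirt3 the highest of the regulators.

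The genes whose size-factor values ran most like those of Pprc1 were Mmadhc, Tcn2 and Csnk2b, with Pearson r of 0.996, 0.992 and 0.988 over the 6 libraries. For Sirt3 they were Map4k4, P4ha2 and Cdk18, with r of 0.996, 0.993 and 0.989. These are the highest of 9891 genes compared over few libraries that share depth and GC differences, and are given as a description.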

How the data were processed

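Polyadenylated RNA was measured in 6 libraries. The deposited values are log2(FPKM + 1), the log2 scale read from the values. CASAVA 1.8.2, TopHat2 2.0.7, HTSeq 0.5.3 and mm9 are named, with no role, per the submitters' processing notes, and strand setting and annotation are not given in the sources used here. Whole reads and library totals were recovered from the FPKM steps for all 17876 genes above 0 (tolerance 1e-05 reads or 1e-10 of the count). Limma 3.58.1 (R 4.3.3) with a variance trend and group as the only term was run on the 10807 genes whose mean reached 1 FPKM, with Benjamini-Hochberg adjustment over all of them (threshold 0.05). Fold changes on the log2(FPKM + 1) scale understate those of low genes. The fit was tested on simulated data. The GC fit, added after seeing the data, used 9847 genes with a GENCODE transcript. It subtracted each library's median deviation from the mean of the 6 libraries in 20 GC bins, which also removes GC-dependent differences between the groups. Alternatives were totals without Rn45s, pseudocount 0.1, no filter, limma-voom, a replicate block and leaving out each library. Named genes were the 10 regulators, Tfam, from each list up to 4 genes past the threshold on both scales (where fewer than 2, up to 2 past it on either), and for called regulators both neighbouring genes and the 3 most correlated genes; Sirt2 and the markers are named only to identify counts. Some genes that the rule names are not reported here. The regulators and lists were chosen with earlier results of these data known. Libraries are pools of hearts. On the deposited scale limma estimated an infinite prior degrees of freedom, so p-values there rest on a spread shared by genes of like level, and on the size-factor scale (prior degrees of freedom 6.2) also on the gene's own spread between pools.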

Additional observations from a re-analysis of the deposited data

How the results depend on the processing

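With 3 pools a group, 24 to 100 reads on Sirt3 and libraries of unequal scale and GC response, calls near the threshold changed with the setting, and the cause was not tested. Higher and lower genes among all tested were 224 and 270 with size factors, 145 and 22 with no filter on low values, 276 and 461 by limma-voom, and 366 and 357 with size factors and the GC correction, chosen after seeing the data. The 2 regulators called higher became 0 with size factors, no filter or limma-voom and 1 with totals without Rn45s. Coregulators had 1 lower with size factors, limma-voom and the GC correction. Sirtuin and NAD genes had 0 higher with size factors, no filter and limma-voom and 1 with the GC correction. The NRF1 and GABP list had 0 higher with size factors and no filter, 1 lower by limma-voom, and 1 higher and 2 lower with the GC correction. That 1 higher gene was Nfe2l1 (limma adjusted p = 0.0224), which is listed but not read as a target. Tfam, the gene targeted in the knockout, is also on this list. It was 1 of the 2 lower genes with the GC correction (-0.49, limma adjusted p = 0.0347). PPAR alpha and ERR targets had 1 higher with size factors, no filter, limma-voom and the GC correction.

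Groups share replicate numbers, but no label says what a number marks, and libraries of the same number deviated together with correlations of 0.3597, 0.0687 and 0.159. KO library 3 correlated more with Control library 2 (0.252) than with its own number. With the replicate block on the deposited scale 2083 genes were higher and 241 lower. Among them were 2 regulators, 3 coregulators, 5 sirtuin and NAD genes and 13 PPAR alpha and ERR targets. Of the list of NRF1 and GABP partners and targets, 7 were higher and 1 lower, Nfe2l1 (limma adjusted p = 0.00111) being 1 of the 7. The replicate block with size factors gave 287 and 394, with 0 regulators, 1 coregulator lower, 0 sirtuin and NAD genes and 2 PPAR alpha and ERR targets higher. The list of NRF1 and GABP partners and targets then had 0 higher and 1 lower.

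Leaving out each library in turn, on either scale, gave 139 to 2273 higher genes (2273 without KO library 2 on the deposited scale) and 52 to 338 lower. The called regulators ran from 0 to 2, coregulators from 0 to 2 higher and 0 to 1 lower, sirtuin and NAD genes from 0 to 4, and PPAR alpha and ERR targets from 1 to 11. The list of NRF1 and GABP partners and targets ran from 0 to 5 higher and 0 to 1 lower. Its 1 higher gene with size factors and without KO library 3 was Nfe2l1 (limma adjusted p = 0.0410). Log2 ratio differences ran from -0.15 to 0.26 for Ppargc1a to Ppargc1b, -0.48 to 0.22 for Esrra to Esrrg and -0.18 to 0.041 for Nrf1 to Gabpa. That of Sirt3 to Sirt1 ran from 0.33 to 0.91. With the GC correction Ppargc1a to Ppargc1b was -0.13 and that of Esrra to Esrrg 0.34.

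Signs turned for uncalled genes. With size factors (alone or with the block), limma-voom and the GC correction the fold changes were Esrrg -0.25, -0.29, -0.32, and for Nrf1 -0.056, -0.079, -0.089, and for Gabpa -0.022, -0.032, -0.082, and for Ldb1 -0.28, -0.32, -0.074. With totals without Rn45s they were -0.072 for Esrrg and -0.093 for Ldb1. Limma-voom put Ppargc1b at -0.0072, and the GC correction Ppargc1a at -0.0031 and Esrra at 0.025. Leaving out 1 library, on either scale, gave -0.12 to 0.53 for Ppargc1a, -0.063 to 0.40 for Ppargc1b, -0.55 to 0.049 for Esrra, -0.42 to 0.18 for Esrrg, -0.091 to 0.32 for Nrf1, -0.10 to 0.40 for Gabpa, -0.37 to 0.16 for Ldb1, -0.015 to 0.56 for Psmd13. Without turning sign, Sirt1 ran from 0.18 to 0.53 on the deposited and 0.03 to 0.28 on the size-factor scale, and Ppara from 0.29 to 0.44 and 0.087 to 0.30.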

Other observations

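Tfam, the gene targeted in the knockout, had a log2 fold change of -0.15 on the deposited scale (limma adjusted p = 0.651), -0.42 on the size-factor scale (adjusted p = 0.152), where all 3 KO libraries lay below the controls, and -0.49 with the GC correction (adjusted p = 0.0347). Before the correction, genes above 58% GC had a median log2 fold change of -0.28 on the size-factor scale and genes under 42% GC one of 0.055.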
